A study of Mus musculus with 4 samples.

Results

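The quantity described here is how far the germ-free effect in colonic epithelium departed from the germ-free effect in ileal epithelium. For each probe set of the array, the log2 change from the wild type to the germ-free mice was taken in the proximal colon and in the ileum, and the ileum change was subtracted from the colon change. A region difference above 0 therefore means that the level moved further upward, or less far downward, in colon than in ileum. The rule took in all 45037 probe sets that are not array controls, of 45101 on the array. Of these, 34945 carried 1 gene symbol, 932 carried several and 9160 carried none. The named probe sets stood for 18193 genes, each represented by its brightest probe set, and 11065 genes were above the background floor on at least 1 array of each region. These 11065 genes are called measured below. A further 681 genes were above the floor in colon only, 685 in ileum only and 5762 on none of the 4 arrays.

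The study set C57/Bl6 mice kept as wild type controls against C57/Bl6 germ-free mice, with the ileum and the proximal colon taken from both. Epithelial cells were cut out of 10 µm frozen sections by laser capture, about 16000 cells per group, and the RNA of 4 mice was pooled, about 4000 cells from each. From 40 ng of total RNA, 2 rounds of amplification gave the material for 1 expression array per group, so that there were 4 groups and 4 arrays. Hematoxylin staining is written in the labels of the germ-free arrays and not in those of the wild type arrays, so that staining and colonisation cannot be told apart. With 1 pooled array per group there was no spread between mice to set a difference against. Values are therefore given without an error, no test was made, and no difference below has a replicate check. A higher or lower level in such a pool can come from few of its mice, and fewer cells of a type cannot be told apart from less RNA per cell.

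Germ-free mice are raised without any microbes, and conventional mice carry a resident flora that is far denser in the colon than in the ileum. The ileal epithelium is built for absorption, with a brush border rich in peptidases and transporters and with the machinery that recovers bile acids. The colonic epithelium absorbs water, salt and short-chain fatty acids and lies beside the densest part of the flora, where interferon-stimulated genes, antimicrobial lectins and enzymes that process foreign chemicals are known to respond to microbial signals.

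Across the 11065 measured genes the change was wider in colon than in ileum. The standard deviation across genes was 0.48 log2 in colon and 0.31 log2 in ileum, and it was 0.54 for the region difference. A total of 492 genes, 4.45% of those measured, were past 2-fold in colon, against 91 genes, or 0.822%, in ileum. The region difference was past 2-fold on the higher side in 239 genes, 2.16% of those measured, and on the lower side in 551 genes, 4.98%. The median region difference over all measured genes was -0.02. The balance between the directions depended on the scaling between arrays, since 30.3% of the genes past 2-fold were higher after quantile normalization, 55.8% with the values as deposited and 20.3% after median scaling. Those settings moved the median of all genes to 0.14 and -0.15. Single probe sets gave a like picture, with 640 of 22086 measured probe sets (2.90%) past 2-fold on the higher side and 994 (4.50%) on the lower side, of which 131 and 178 carried no single gene symbol.

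The technical spread of a region difference was read from 2647 genes that had a pair of bright probe sets. The standard deviation between probe sets of a gene was 0.32 log2 for the colon change, 0.22 for the ileum change and 0.36 for the region difference. Of 89 such genes past 2-fold by the brightest probe set, 69 had the same sign on the second. Array controls also moved unequally. The 18 hybridization spikes, which are added to each sample in equal amounts, had a median region difference of 0.49 in the deposited values, between 0.10 and 0.98. The 5' to 3' signal ratio, a measure of how far the copied RNA reaches, had a region difference of 1.08 for Actb, 0.62 for Gapdh and -0.15 for pyruvate carboxylase, and the ratio change in ileum was -1.20, -1.10 and -0.28. The part of these in the results was not tested. Epithelial genes were bright everywhere, as shown by Epcam, an epithelial adhesion molecule, at 9687 on the colon wild type array, 10951 on the colon germ-free array, 11533 on the ileum wild type array and 10598 on the ileum germ-free array. Not every region marker kept its region, since the colonocyte markers Aqp8 and Slc37a2, given below, were brighter in ileum on the germ-free arrays. Car1 and Lyz1 did keep theirs. Car1, a colonic carbonic anhydrase, stood at 14384 and 12438 in colon against 64.7 and the floor in ileum. Lyz1, the Paneth cell lysozyme, stood at 232.7 and 131 in colon against 10210 and 7687 in ileum.

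**Figure D1:**
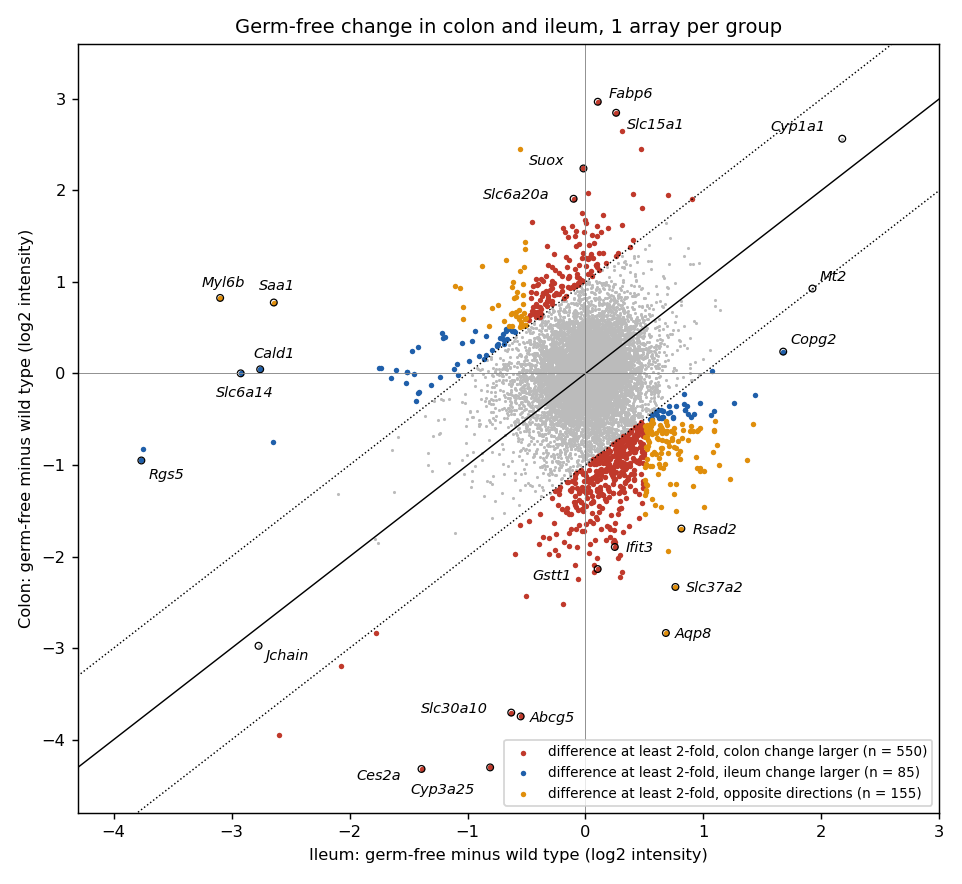
Germ-free change of each of the 11065 measured genes in ileum (x axis) and colon (y axis), in log2 intensity, with 1 array per group. The solid line marks equal changes and the dotted lines a 2-fold difference between the regions, and colours show whether the colon change was larger (550 genes), the ileum change was larger (85 genes) or the changes ran in opposite directions with both at least 0.5 log2 (155 genes). The cloud is taller than it is wide, and Jchain and Cyp1a1 lie far from the centre but near the line. Cyp1a1 was at the floor on both wild type arrays, so that its distance from the line was not resolved.

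Most of the region difference was made in the colon. Among the 239 genes with a higher difference, the colon change was the larger one in 145, the ileum change in 50, and the changes opposed each other in 44. Among the 551 genes with a lower difference the counts were 405, 35 and 111. Of the 790 genes in all, 389 were past 2-fold in neither region alone. The genes of the higher group were often ones that the ileum expresses more strongly. Taking the mean over both colonisation states, 48 of the 239 (20.1%) were at least 2-fold brighter in ileum, compared with 531 of all 11065 measured genes (4.80%) and 36 of the 551 in the lower group (6.53%). In 11 of those 48 genes a colon array was at the floor. Both measures come from the same 4 arrays, so that these counts describe the arrays and are no test.

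Of the 8 named genes with a colon-made increase, 6 were brighter on both ileum arrays than on either colon array. Fabp6 encodes the ileal bile acid binding protein. Its intensity was 767 on the colon wild type array and 6008 on the colon germ-free array, against 16920 and 18190 in ileum, a region difference of 2.86. The ileum arrays were thus near each other while the germ-free colon array lay 7.83-fold above the wild type colon array. Slc15a1, the di- and tripeptide transporter of the brush border, went from 81.3 to 586 in colon and from 2887 to 3457 in ileum, a difference of 2.59. Slc6a20a, a proline and imino acid transporter, went from 246 to 924 in colon and from 6234 to 5814 in ileum, a difference of 2.01. Suox, the mitochondrial sulfite oxidase, went from 395 to 1866 in colon and from 5718 to 5651 in ileum, a difference of 2.26. In all 4 genes the germ-free colon array stayed below both ileum arrays. Apoa1, the main apolipoprotein of high-density lipoprotein, was at the floor in the wild type colon and at 245 in the germ-free colon, with 16058 and 16273 in ileum, so that its difference was at least 1.95. Adgrd1, an adhesion G protein-coupled receptor, was at the floor and at 341 in colon and at 574 and 797 in ileum, a difference of at least 1.98.

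The other two genes of the class were not brighter in ileum. Calcb, a calcitonin gene-related peptide, went from 125 to 785 in colon and from 102 to 126 in ileum, a difference of 2.34. Anxa1, annexin A1, a phospholipid-binding protein that restrains inflammation, went from 1366 to 4294 in colon and from 238 to 173 in ileum, a difference of 2.11. In these genes the germ-free colon array was the highest of the 4.

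**Figure D2:**
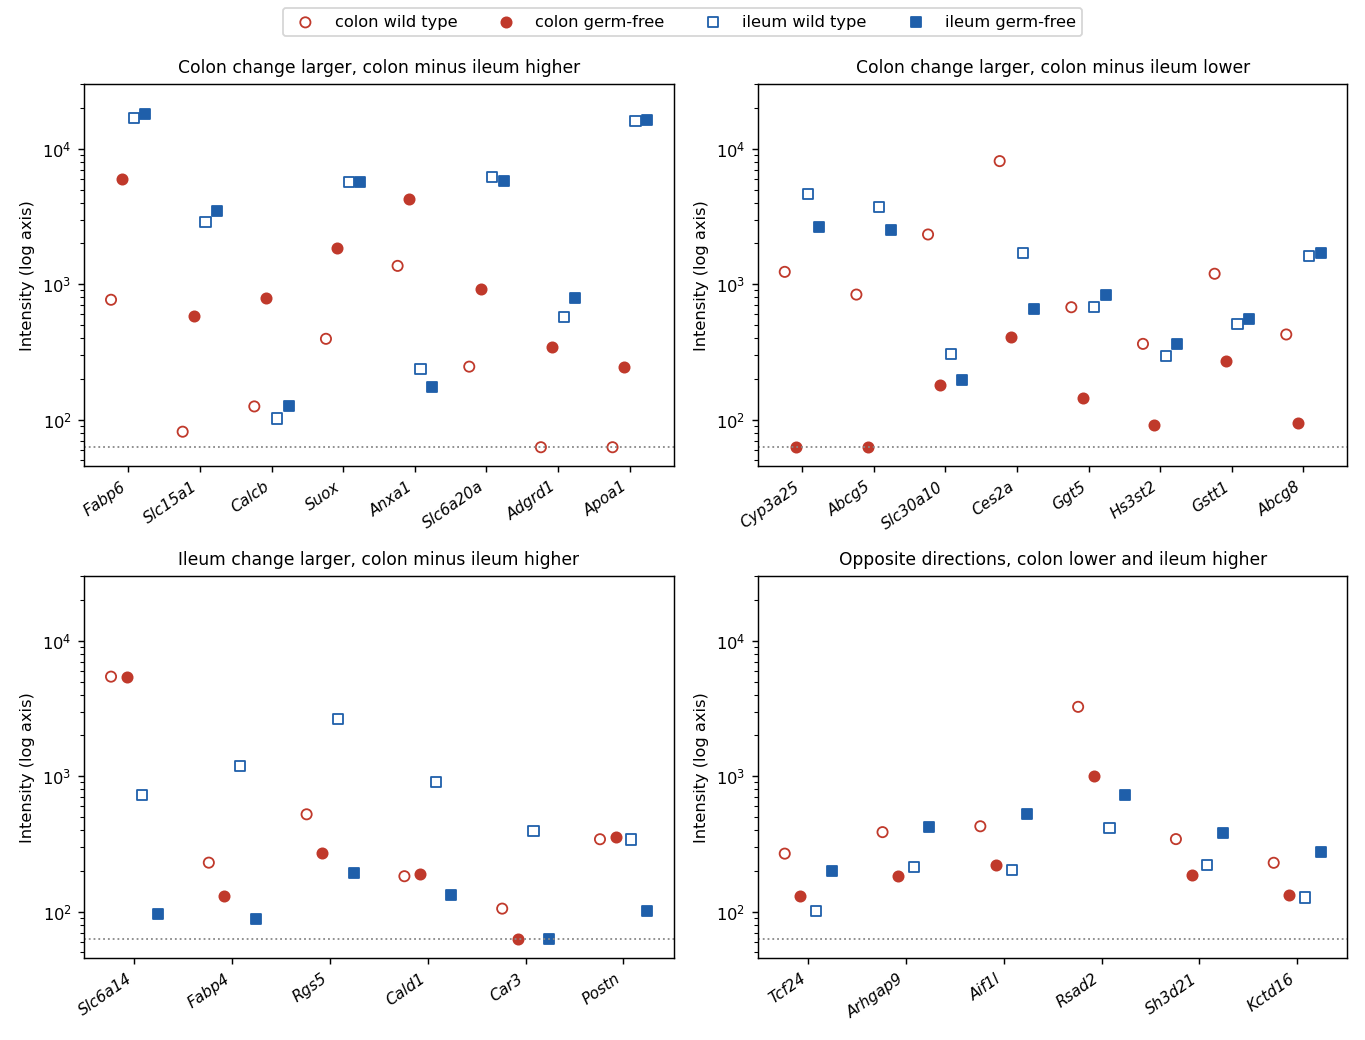
Intensity on each of the 4 arrays, on a log axis, for the named genes of 4 classes, with circles for colon, squares for ileum, open symbols for wild type and filled symbols for germ-free, and with the dotted line at the floor of 62.4. In the upper panels the ileum squares of each gene lie closer together than its colon circles, in the lower left panel it is mostly the ileum that is spread, and in the lower right panel the regions run in opposite directions.

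The named genes with a colon-made decrease were 5 enzymes and 3 exporters. Cyp3a25, a cytochrome P450 of drug and steroid oxidation, stood at 1234 on the colon wild type array and at the floor on the colon germ-free array, against 4650 and 2655 in ileum, a difference of -3.50 or lower. Ces2a, a carboxylesterase, went from 8119 to 406 in colon and from 1712 to 653 in ileum, a difference of -2.93. Both genes were lower on the germ-free array of each region, and the colon step was the larger. Abcg5 and Abcg8 form the heterodimer that pumps plant sterols and cholesterol back into the gut lumen. Abcg5 went from 838 to the floor in colon and from 3708 to 2534 in ileum, a difference of -3.20 or lower, and Abcg8 went from 425 to 94.7 in colon and from 1622 to 1702 in ileum, a difference of -2.24. The partners thus moved the same way in colon. Slc30a10, a manganese exporter, went from 2330 to 179 in colon and from 303 to 196 in ileum, a difference of -3.08. Gstt1, a glutathione transferase, went from 1195 to 272 in colon and from 511 to 549 in ileum, a difference of -2.24. Ggt5, a gamma-glutamyltransferase that acts on leukotrienes and glutathione, went from 676 to 145.0 in colon and from 675 to 827 in ileum, and Hs3st2, a heparan sulfate sulfotransferase, went from 362 to 91.9 and from 295 to 363. Their differences were -2.51 and -2.28.

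Of the genes with no array at the floor, Aqp8 had the lowest region difference. It encodes the water channel of the colonic surface epithelium, lies outside the rule for named genes and was picked after its values were seen. Its intensity was 545 on the colon wild type array and 76.4 on the colon germ-free array, against 81.3 and 130.5 in ileum, a difference of -3.52. Slc37a2, a sugar phosphate exchanger on the list of colonocyte markers, was picked in the same way and behaved alike, with 315 and the floor in colon against 78.5 and 133 in ileum, a difference of -3.10 or lower. For both genes the wild type colon array was the highest of the 4, and on the germ-free arrays the ileum was above the colon. The list of 13 measured colonocyte markers as a whole had a median region difference of -0.08, with 1 past 2-fold higher and 2 lower, the latter being this pair.

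Ileum-made differences were fewer and held several genes of non-epithelial cells. Slc6a14, an amino acid transporter of broad range, was at 5441 and 5446 in colon and went from 727 to 95.8 in ileum, a difference of 2.92. Rgs5, a marker of pericytes, went from 523 to 271 in colon and from 2632 to 193 in ileum, a difference of 2.82, or 1.78 as a mean over its probe sets. Cald1, the smooth muscle protein caldesmon, was at 182 and 188 in colon and went from 900 to 133 in ileum, a difference of 2.80, though it was 0.28 when probe sets with more than 1 possible target were left out. Fabp4, which carries fatty acids in fat and endothelial cells, went from 230 to 129 in colon and from 1190 to 88.4 in ileum, a difference of 2.92. Postn, the matrix protein periostin, was at 342 and 357 in colon and went from 341 to 101 in ileum, a difference of 1.81. Car3, a carbonic anhydrase of muscle and fat, was at the floor on both germ-free arrays, so that its difference was not resolved. For Rgs5, Cald1, Fabp4 and Car3 the wild type ileum array was the highest of the 4.

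Rgs5 and Cald1 are also on the list of fibroblast and smooth muscle markers, whose region differences did not all run one way. Of 18 fibroblast and smooth muscle markers, 12 were measured and 4 were above the floor in ileum only. Cnn1 and Myh11, which define smooth muscle, were at the floor on all 4 arrays. The 4, Tagln, Des, Dcn and Actg2, went from 245, 145, 144 and 71.9 in the wild type ileum to the floor in the germ-free ileum. The median region difference of the 12 was 0.21, with 7 above 0. Past 2-fold were 3 higher and 1 lower, against 2.16% and 4.98% of all measured genes. The summed level of the 12 and the 4, Rgs5 and Cald1 included, was 10804 on the wild type and 11477 on the germ-free colon array. In ileum it was 18624 and 12055. Mylk, the brightest of them on every array, went from 4353 to 6400 in colon and from 6893 to 6481 in ileum. Vim, the intermediate filament of mesenchymal cells, went from 583 to 760 in colon and from 1248 to 540 in ileum, a difference of 1.59. Col6a1, a chain of collagen VI, went the other way, from 601 to 361 in colon and from 450 to 542 in ileum, and was the 1 past 2-fold lower, while Tpm2, a tropomyosin, was lower on both germ-free arrays with a difference of -0.02. The part of captured connective tissue in the ileum-made differences was not tested.

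The named ileum-made genes on the lower side had smaller differences. Copg2, a coat protein of vesicles of the Golgi, was at 234 and 276 in colon and went from 245 to 784 in ileum, a difference of -1.44. Kctd13, an adaptor of a ubiquitin ligase, was at 309 and 247 in colon and went from 137 to 327 in ileum, a difference of -1.58. Plekhg2 was at 980 and 724 in colon and at 696 and 1134 in ileum, a difference of -1.14. The other named genes of this class were Tmem106c, Ankrd24 and Clec2e, with differences of -1.07, -1.06 and -1.02.

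Interferon-stimulated genes were the largest of the immune lists, and their difference was lower. These genes are switched on by type I and type III interferon through a promoter element called ISRE. Of 36 genes of the list found on the array 32 were measured, with a median change of -0.56 in colon and -0.24 in ileum and a median difference of -0.42, against -0.02 for all genes. The difference was past 2-fold lower in 9 of the 32 and past 2-fold higher in 0, against 4.98% and 2.16% of all measured genes. It was below 0 in 22 and above 0 in 10. The summed level of the list went from 33688 to 20406 in colon and from 19523 to 18193 in ileum.

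The largest differences in this list came from effectors of the antiviral state. Rsad2, the antiviral enzyme viperin, went from 3255 to 1005 in colon and from 412 to 724 in ileum, a difference of -2.51. Ifit3, which binds foreign RNA together with Ifit1, went from 1097 to 295 in colon and from 394 to 468 in ileum, a difference of -2.14. Oas3, a sensor of double-stranded RNA, went from 345 to 127 in colon and from 228 to 343 in ileum, a difference of -2.03. In all 3 genes the level on the germ-free array was lower in colon and higher in ileum. Usp18, which removes the ubiquitin-like protein ISG15, had a difference of -1.82 or lower, with the floor on the colon germ-free and the ileum wild type array. Ifit1 went from 3228 to 934 in colon and from 596 to 464 in ileum, a difference of -1.43, so that it was lower on both germ-free arrays. Rtp4, a receptor-transporting protein induced by interferon, went from 1610 to 576 in colon and stayed at 645 and 633 in ileum. Trim30a and Zbp1 had differences of -1.39 and -1.08, the latter -0.31 as a mean over its probe sets, and that of Ifit2 was not resolved because both germ-free arrays were at the floor. The list was not uniform. Irf7, the transcription factor that amplifies the interferon response, had a difference of -0.61, with 5660 and 3960 in colon and 1670 and 1788 in ileum. Ifi27l2a went the other way at 0.81, with 179.5 and 100.4 in colon against 306 and 98.0 in ileum, and so did the guanylate-binding proteins Gbp7 at 0.70 and Gbp2 at 0.58.

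Promoters of the pair of interferon genes with the largest difference are shown because their letters hold the ISRE core. The window runs from 250 bases before to 50 bases after the transcription start (RefSeq, GRCm38.p6), and capitals mark each match to GAAANNGAA, searched on both strands. The Rsad2 window (chr12:26456403-26456702, minus strand) has 1 match, 119 bases before the start, and the Ifit3 window (chr19:34583279-34583578, plus strand) has 3, between 155 and 102 bases before the start.
Rsad2: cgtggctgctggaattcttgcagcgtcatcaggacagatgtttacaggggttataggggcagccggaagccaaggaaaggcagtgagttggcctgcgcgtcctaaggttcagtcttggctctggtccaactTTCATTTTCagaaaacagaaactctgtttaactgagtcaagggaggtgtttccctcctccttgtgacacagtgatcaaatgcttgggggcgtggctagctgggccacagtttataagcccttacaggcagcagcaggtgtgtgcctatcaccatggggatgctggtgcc
Ifit3: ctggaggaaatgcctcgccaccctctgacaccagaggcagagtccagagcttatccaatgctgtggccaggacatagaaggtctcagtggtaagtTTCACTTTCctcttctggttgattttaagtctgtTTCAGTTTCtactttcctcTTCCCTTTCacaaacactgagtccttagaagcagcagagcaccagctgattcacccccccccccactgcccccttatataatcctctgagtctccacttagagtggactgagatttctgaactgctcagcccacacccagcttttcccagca
The core was present in 8.56% of all 32851 RefSeq mouse promoters of 300 bases. Of the 32 measured interferon genes 25 had a promoter in the table, and 16 of those 25 held the core. Among the genes past 2-fold it was present in 5 of 6 with a promoter (Ifit1, Ifit3, Oas3, Rsad2 and Trim30a), and among the others in 11 of 19. A match is a run of letters and not a measured binding site.

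Antigen presentation by MHC class II had a median region difference of -0.40, from a median change of -0.83 in colon and -0.23 in ileum. Of 8 measured class II genes, 7 had a difference below 0. Relative to all genes the list was at -0.38, but at -0.19 with the values as deposited and -0.20 after median scaling, inside the 0.25 used to describe a list. H2-DMa, which loads peptide, was above the floor in ileum only and went from 254 to 133. The chains H2-Aa and H2-Ab1, which present peptide to CD4 T cells, were lower on the germ-free array in both regions. H2-Aa went from 809 to 359 in colon and from 1683 to 941.5 in ileum, a difference of -0.34, and H2-Ab1 had a difference of -0.27. These values are from the brightest probe set, and for both genes the probe sets did not all give a difference of the same sign. The only class II gene past 2-fold was H2-Ea, against 4.98% of all measured genes past 2-fold lower. Its difference was -1.22 or lower, from low values of 116.4 and the floor of 62.4 in colon and 64.1 and 80.0 in ileum. Whether they stand above background signal was not tested. Cd74, the invariant chain, had a difference of -0.07, and the protease gene Ctss lay on the other side at 0.20. The 15 measured MHC class I genes had a median change of -0.40 in colon and -0.27 in ileum and a median difference of 0.02.

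**Figure D3:**
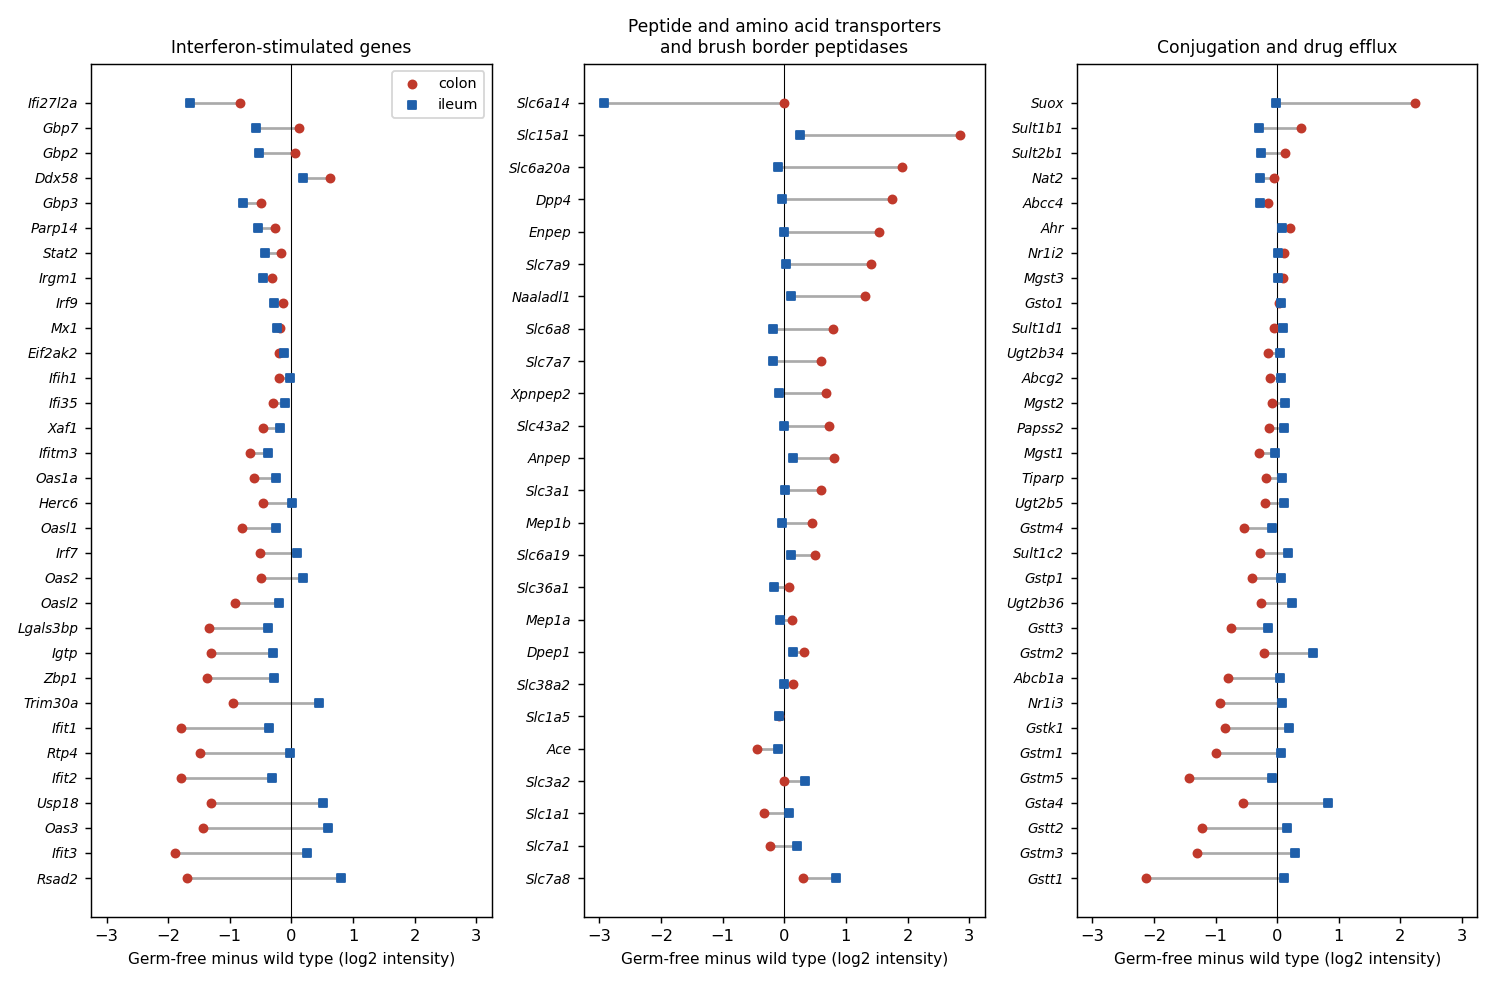
Germ-free change in colon (circles) and ileum (squares), in log2 intensity, for every measured member of the lists of interferon-stimulated genes, of peptide and amino acid transporters with brush border peptidases, and of conjugation and drug efflux genes, ordered by region difference with 1 array per group. Grey lines join the regions. In most rows the ileum square lies near 0 and the colon circle sets the length of the line, with Slc6a14 as the clearest exception.

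The defence genes of the epithelium that are secreted or sense microbes moved in no common direction. Reg3g, a lectin that kills Gram-positive bacteria, went from 1602 to 409 in colon and from 11961 to 9632 in ileum, a difference of -1.66. Reg4, a related lectin, went from 703 to 257 in colon and from 579 to 626 in ileum, a difference of -1.56. These were the 2 genes past 2-fold among 6 measured antimicrobial genes, against 4.98% of all measured genes past 2-fold lower. Of the 6, 3 lay above 0, and the median of the list was -0.10. Il18, an epithelial cytokine of the interleukin 1 family, went from 760 to 276 in colon and from 588 to 914 in ileum, a difference of -2.10. Cxcl1, a neutrophil chemokine, had a difference of -1.10. On the other side were Ccl25, the small intestinal chemokine for gut-homing lymphocytes, at 1.32 with 143 and 304 in colon against 7366 and 6300 in ileum, Ccl28 at 1.28, Cx3cl1 at 1.10 and the interleukin 1 receptor antagonist Il1rn, which went from 207 to 775 in colon and from 99.6 to 187 in ileum. Averaged over their probe sets, Ccl28 and Cx3cl1 were at 0.65 and 0.28. With 4 of 15 measured chemokines and cytokines past 2-fold higher and 2 lower, the median was -0.13. The shares of all measured genes were 2.16% higher and 4.98% lower. Among 16 measured genes of microbial sensing, Tlr5, the flagellin receptor, had a difference of -1.37 or lower. Cd14, the co-receptor for lipopolysaccharide, went from 342 to 673 in colon and from 278 to 192 in ileum, a difference of 1.51. Tlr4 and Tlr2 were above the floor in colon only, where Tlr4 went from 245 to 556 and Tlr2 from 607 to 309.

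Acute phase and complement genes had a higher difference. Saa1, serum amyloid A, a retinol-binding acute phase protein of the gut, went from 8267 to 14149 in colon and from 1216 to 195 in ileum, a difference of 3.42. Cfb, complement factor B, went from 301 to 608 in colon and from 1089 to 893 in ileum, a difference of 1.30. The germ-free array was therefore higher in colon and lower in ileum for both. Cd55, which protects cells from complement, had a difference of 0.71, and that of Saa3 was -0.54 or higher, with the germ-free ileum array at the floor, so that its sign was not resolved. Of the 6 measured genes 5 were above 0, with a median of 0.38, and 2 were past 2-fold higher, against 2.16% of all measured genes. C2 and Serping1, counted among the 5, were near 0 at 0.05 and 0.04. Relative to all genes the list was at 0.39, but at 0.249 with the floor at the 25th percentile, just inside the 0.25 used to describe a list. The acute phase genes Saa1, Saa2 and Saa3 are near-identical copies in part, and probes can share their signal.

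Brush border peptidases had the highest median of the function lists at 0.66, from 0.68 in colon and -0.03 in ileum. These enzymes sit on the luminal face of absorptive cells and cut peptides for uptake. Dpp4, dipeptidyl peptidase 4, went from 347 to 1169 in colon and from 6251 to 6118 in ileum, a difference of 1.78. Enpep, glutamyl aminopeptidase, went from 996 to 2898 in colon and from 11199 to 11115 in ileum, a difference of 1.55. Naaladl1, a relative of the folate hydrolases, went from 2342 to 5834 in colon and from 10610 to 11467 in ileum, a difference of 1.20. All 3 were higher on the germ-free colon array and nearly level in ileum. Xpnpep2 and Anpep were at the floor in the wild type colon and had differences of at least 0.76 and at least 0.66. Of 9 measured members 8 lay above 0 and 3 past 2-fold higher, against 2.16% of all measured genes past 2-fold higher. Ace, the angiotensin-converting enzyme, lay against them at -0.34.

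Peptide and amino acid transporters had a median of 0.48, from 0.40 in colon and -0.00 in ileum. Of 16 measured, 12 were above 0, 4 past 2-fold higher and 0 past 2-fold lower, against 2.16% and 4.98% of all measured genes past 2-fold. Beside Slc15a1, Slc6a20a and Slc6a14, the fourth was Slc7a9, the light chain of the cystine transporter, which went from 1366 to 3625 in colon and from 8692 to 8872 in ileum, a difference of 1.38. Its heavy chain Slc3a1 had a difference of 0.59. The creatine transporter Slc6a8 and Slc7a7, a basolateral exporter of basic amino acids, had differences of 0.97 and 0.78. Slc43a2, an exporter of neutral amino acids, went from 286 to 471 in colon and stayed at 6898 and 6864 in ileum. Slc7a1 lay against the list at -0.45, and the difference of Slc7a8 was -0.53 or higher, so that its sign was not resolved.

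Absorptive enterocyte markers are given beside the nutrient genes. Their 8 measured members had a median difference of 0.31, with 6 above 0 and 1, Apoa1, past 2-fold. Relative to all genes this was 0.33, but it lay between 0.15 and 0.19 with the values as deposited, after median scaling, with the floor at the 25th percentile and with no floor, inside the 0.25 used to describe a list. The summed level of the enterocyte markers above the floor on at least 1 array went from 23104 to 26956 in colon and from 64551 to 65065 in ileum. Alpi, the intestinal alkaline phosphatase, went from 1055 to 1820 in colon and from 7007 to 7118 in ileum, a difference of 0.76. Fabp1, the liver-type fatty acid binding protein, ran against it at -0.82, as did Apoa4, an apolipoprotein, at -0.48 or lower. The part of cell makeup in the nutrient gene values was not tested. Other absorptive functions were mixed. Npc1l1, the cholesterol uptake transporter, had a difference of 1.05, but the 9 measured genes of sterol uptake and efflux had a median of 0.01. The 21 measured genes of fat absorption had a median of -0.16, with Apoa1 and Apoc3 past 2-fold higher. The 5 measured disaccharidases and sugar transporters had a median of -0.15 with 0 past 2-fold. The 9 measured genes of bile acid handling had a median of 0.21, with 5 above 0, and Fabp6 was the 1 past 2-fold. The bile acid importer Slc10a2 followed at 0.98, with 261 and 424 in colon and 618 and 509.5 in ileum. The exporter subunits Slc51a and Slc51b were at 0.62 and 0.21 and the bile acid receptor Nr1h4 at 0.55. Below 0 were Nr0b2, a repressor that this receptor induces, at -0.90 or lower, Abcc3 at -0.24, Slco2a1 at -0.50 and Slco2b1 at -0.45.

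**Figure D4:**
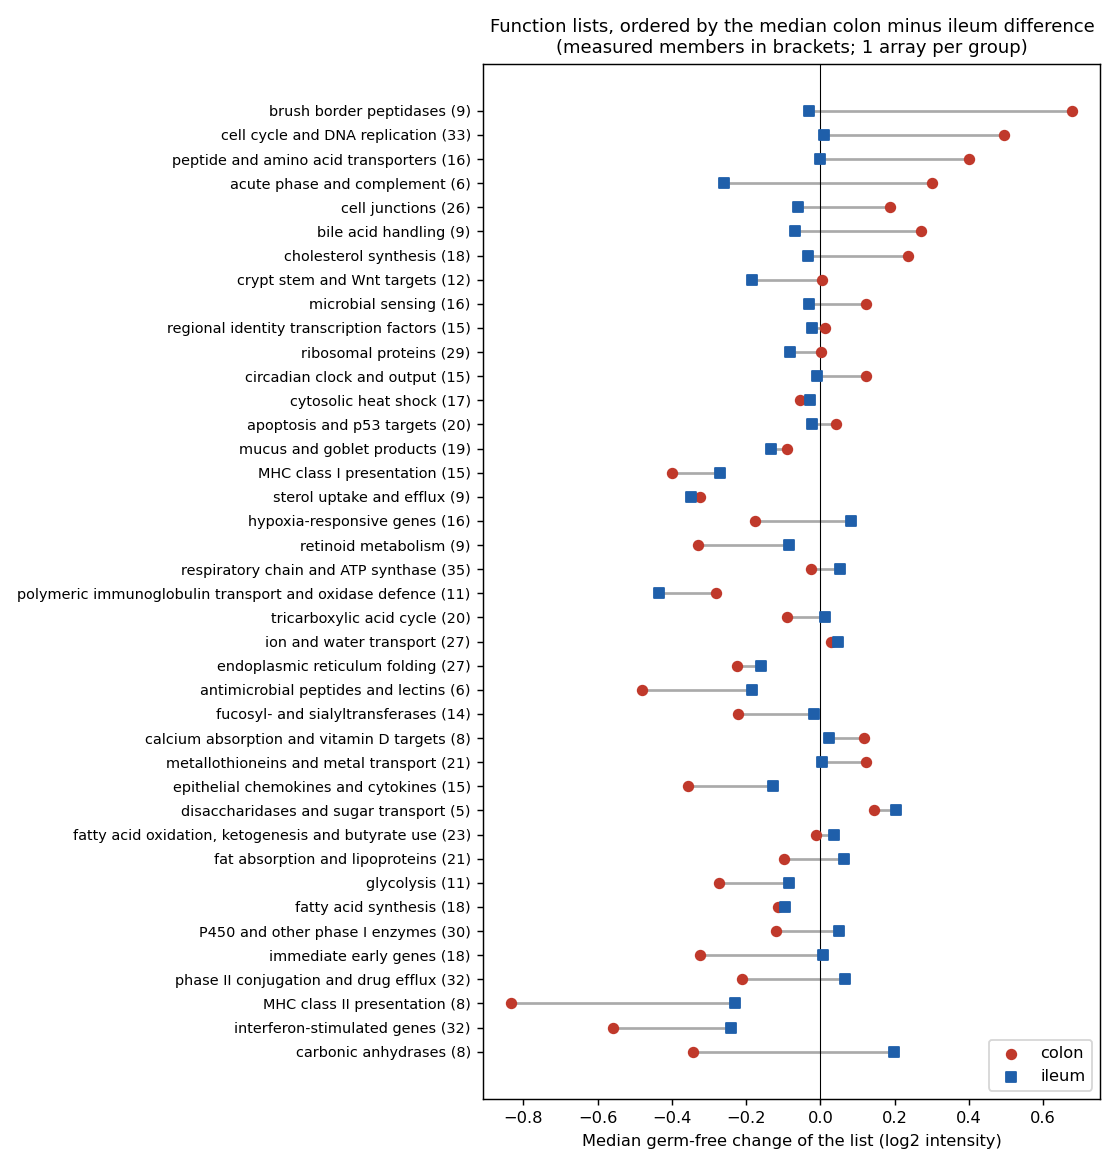
Median germ-free change of each of the 40 function lists in colon (circles) and ileum (squares), in log2 intensity, ordered by the median region difference, with the number of measured members in brackets and 1 array per group. Brush border peptidases, cell cycle genes and peptide and amino acid transporters stand at the upper end, and carbonic anhydrases, interferon-stimulated genes and MHC class II genes at the lower end.

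Conjugation and drug efflux genes had a lower difference. These enzymes attach glutathione, sulfate or sugar acids to foreign and endogenous chemicals so that they can be exported. Of 32 measured, 24 were below 0, and the median was -0.29, from -0.21 in colon and 0.07 in ileum. Past 2-fold lower were 7, and 1, Suox, which makes the sulfate, was past 2-fold higher, against 4.98% and 2.16% of all measured genes. The glutathione transferases made up the 7. Beside Gstt1, Gstm3 went from 2343 to 947 in colon and from 1179 to 1435 in ileum, a difference of -1.59 that was -0.88 as a mean over its probe sets. Gstt2 went from 1106 to 473 in colon and from 819 to 919 in ileum, a difference of -1.39. Gsta4, which clears products of lipid peroxidation, went from 803 to 547 in colon and from 677 to 1194 in ileum, a difference of -1.37. Gstm5, Gstm1 and Gstk1 had differences of -1.35, -1.06 and -1.04. Mu-class transferases are close copies of each other, and their probe sets may share signal. Abcb1a, the drug efflux pump P-glycoprotein, went from 13314 to 7682 in colon and from 8778 to 9085 in ileum, a difference of -0.84. The chemical sensors Ahr and Nr1i2 had differences of 0.13 and 0.10, while Nr1i3, another such sensor, went from 119 to the floor in colon and was at 75.9 and 79.7 in ileum. Sult1b1, a sulfotransferase, lay against the list at 0.68.

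Cytochromes P450 and other enzymes of the first step of drug metabolism held 8 genes past 2-fold lower and 0 higher among 30 measured, with a median of -0.23. Of all measured genes 4.98% were past 2-fold lower and 2.16% higher. Adh1, an alcohol and retinol dehydrogenase, went from 7296 to 2166 in colon and from 1450 to 1222 in ileum, a difference of -1.51. Ces1f, a carboxylesterase, went from 3406 to 1440 in colon and from 2366 to 2575 in ileum, a difference of -1.36. Ces1g went from 1853 to 1224 in colon and from 120 to 236 in ileum, a difference of -1.57. Cyp3a11 had a difference of -1.37 or lower, and that of Akr1b8, an aldo-keto reductase counted among the 8, was -1.58 or higher because the germ-free ileum array was at the floor, so that its sign was not resolved. A gene of the list in which the ileum moved further downward was Cyp2c55, at 14524 and 10555 in colon and 2756 and 1072 in ileum, a difference of 0.90. Cyp1a1, the P450 that the aryl hydrocarbon receptor switches on, was at the floor on both wild type arrays and at 370 and 282 on the germ-free arrays of colon and ileum, so that it was higher in both regions and its difference was not resolved. Its promoter window is shown because its letters match GCGTG, the core of the xenobiotic response element. The match, searched on both strands, is in capitals (chr9:57697363-57697662, plus strand, RefSeq GRCm38.p6, 54 bases before the start).
Cyp1a1: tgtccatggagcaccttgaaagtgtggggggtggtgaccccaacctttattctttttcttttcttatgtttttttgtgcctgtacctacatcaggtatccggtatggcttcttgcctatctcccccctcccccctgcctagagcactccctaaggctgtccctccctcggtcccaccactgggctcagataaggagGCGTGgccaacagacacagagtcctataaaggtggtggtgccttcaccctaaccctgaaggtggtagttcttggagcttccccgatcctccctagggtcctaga
The 5-letter core was present in 32.4% of all RefSeq promoters of this length. Such a match is a run of letters and not a measured binding site, and binding of the receptor here was not tested.

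Carbonic anhydrases, which supply protons and bicarbonate for salt uptake, had the lowest median of the function lists that were described, -0.52, from -0.34 in colon and 0.20 in ileum. None of the measured members was past 2-fold lower, and 6 of 8 were below 0. Of these 6, Car1 was at -0.16 or higher because the germ-free ileum array was at the floor, so that its sign was not resolved. Relative to the median of all genes the list was at -0.51, but at -0.16 with the floor at the 25th percentile and at -0.15 with no floor, inside the 0.25 used to describe a list. Car4, the surface form of the colon, went from 7800 to 5668 in colon and from 1453 to 1917 in ileum, a difference of -0.86. Car12 went from 2665 to 1687 in colon and from 1398 to 1681 in ileum, a difference of -0.93, and Car7 had a difference of -0.93 at lower intensity. Car9 and Car13 followed at -0.60 and -0.45. Car8 lay above 0, and the difference of Car3 was not resolved because both germ-free arrays were at the floor. Car2, above the floor in colon only, went from 3774 to 1958.

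Genes of the cell cycle and of DNA replication had a median region difference of 0.53, from 0.49 in colon and 0.01 in ileum. Of 33 measured, 26 were above 0, although 2 were past 2-fold in each direction, against 2.16% higher and 4.98% lower of all measured genes. Ccnd2, a G1 cyclin, went from 186 to 404 in colon and was at 1141 and 1179 in ileum, a difference of 1.07. Mcm4, a part of the replication helicase, went from 185 to 357 in colon and from 291 to 284 in ileum, a difference of 0.98. Mki67 and Top2a, which mark dividing cells, had differences of 0.76 and 0.65, and Cdk1 had one of at least 0.94. These genes were all higher on the germ-free colon array. Cdc20 was past 2-fold at 1.06 by its brightest probe set and changed sign without shared probe sets. Fen1, a nuclease that trims replication flaps, lay against the list at -1.21, with 1126 and 634 in colon and 1042 and 1358 in ileum, and Ccne1 lay at -1.75 or lower.

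Cell junction genes had a smaller shift, a median of 0.27 from 0.19 in colon and -0.06 in ileum, with 0 of 26 past 2-fold and 21 above 0. Relative to all genes it was 0.28, but 0.16 with the values as deposited and 0.15 after median scaling, inside the 0.25 used to describe a list. Dsc2, a desmosomal cadherin, went from 3631 to 4937 in colon and from 4210 to 3467 in ileum, a difference of 0.72. Cgn, the tight junction protein cingulin, and Pkp3, the desmosomal plakophilin, had differences of 0.63 and 0.54. The junction genes Jup, Cldn23 and Cldn4 lay against the list at -0.59, -0.51 and -0.45.

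The clock genes were divided. The list of 15 measured genes had a median of 0.07. Yet 4 were past 2-fold higher and 0 lower, against 2.16% and 4.98% of all measured genes. The 4 are repressors of the clock (Per1, Per2 and Cry2) and an output factor (Dbp). Per1 went from 73.2 to 206 in colon and from 77.6 to 70.1 in ileum, a difference of 1.64. Dbp went from 249 to 797 in colon and was at 94.7 on both ileum arrays, a difference of 1.68. Cry2 went from 211 to 436 in colon and from 188 to 171 in ileum, a difference of 1.19, and Per2 had a difference of at least 1.73, or 0.93 as a mean over its probe sets. In each of them the germ-free colon array lay above the wild type colon array and the ileum arrays lay close together. Arntl, of the positive arm, had a difference of 0.24 and Per3 one of -0.53. The hour at which tissue was collected is not stated in the labels. The Per1 window is shown because its letters hold an E-box, the element bound by the clock's positive arm, and CACGTG is in capitals (chr11:69098699-69098998, plus strand, RefSeq GRCm38.p6, 166 bases before the start).
Per1: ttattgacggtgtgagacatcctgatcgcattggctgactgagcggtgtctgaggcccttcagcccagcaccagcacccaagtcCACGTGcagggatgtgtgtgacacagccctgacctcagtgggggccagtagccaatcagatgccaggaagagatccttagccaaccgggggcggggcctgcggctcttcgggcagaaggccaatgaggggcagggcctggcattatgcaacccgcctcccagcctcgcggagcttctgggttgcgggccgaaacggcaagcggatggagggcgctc
The E-box was present in 7.15% of all RefSeq promoters of this length, and in 4 of the 13 clock genes with a promoter. Of the 3 clock genes past 2-fold that had a promoter in the table, Per1 was the 1 that held it, and a second Per1 promoter did not.

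Genes whose regions ran in opposite directions, each by at least 0.5 log2, numbered 44 on the higher and 111 on the lower side. Myl6b, a myosin light chain, went from 70.7 to 125 in colon and from 535 to the floor in ileum, a difference of at least 3.92. Cxcl12, a chemokine of stromal cells, went from 636 to 1053 in colon and from 243 to 118 in ileum, a difference of 1.77. Niban1, a stress-induced regulator of translation, went from 669 to 1294 in colon and from 134 to the floor in ileum, a difference of at least 2.06. Capn2, a calcium-dependent protease, had 460 and 771 in colon and 286 and 171 in ileum. On the lower side Aif1l, an actin-binding protein, went from 427 to 222 in colon and from 204 to 526 in ileum, a difference of -2.31 that was -1.21 as a mean over its probe sets. Arhgap9, a GTPase activator of blood cells, went from 386 to 185 in colon and from 214 to 419 in ileum, a difference of -2.03, which was -0.54 without such shared probe sets. In Myl6b, Aif1l and Arhgap9 the brighter region on the wild type arrays was the dimmer one on the germ-free arrays, while in Cxcl12, Niban1 and Capn2 the colon stood further above the ileum on the germ-free arrays.

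Markers of other cell types differed between the regions too. Plasma and B cell markers had a median change of -1.98 in colon and -1.22 in ileum over 6 measured members. Igha, the heavy chain of IgA, went from 4609 to 501 in colon and from 7204 to 1712 in ileum, a difference of -1.13. Jchain, which links IgA into dimers, went from 1549 to 197 in colon and from 4808 to 704 in ileum, a difference of -0.20, and so was lower on the germ-free array of both. Sdc1, a proteoglycan that epithelial cells carry too, was higher on both germ-free arrays, from 4852 to 6464 in colon and from 5003 to 5252 in ileum, a difference of 0.34, and Mzb1 had a difference of 0.30. Ighm, the heavy chain of IgM, went from 405 to 206 in colon and was at 348 and 351 in ileum. The summed level of the plasma and B cell markers went from 13213 to 7735 in colon and from 20470 to 8776 in ileum. Cd79a, Ms4a1 and Tnfrsf17, also on this list, were at the floor on all 4 arrays. The sign of the list's median region difference turned under another floor. For T lymphocytes, Cd8a went from 374 to 129 in colon and from 565 to 512 in ileum, a difference of -1.40 (-0.88 as a mean over its probe sets), but the list had a median of 0.24 and Cd3e, Cd3d and Cd3g were at the floor throughout. Paneth cell markers had a median of 0.24 with 4 measured, 2 on each side. The 5 measured endothelial markers all had a calculated region difference below 0, with a median of -0.63. That median was the value of Plvap, which was -0.63 or higher because the germ-free ileum array was at the floor. The sign of Plvap was thus not resolved, and the probe sets of Eng did not all give the same sign. Among the endothelial markers Kdr, a receptor for vascular growth factor, went from 326 to 116 in colon and from 176 to 154 in ileum. Pecam1 and Vwf were at the floor on all arrays. Tuft cell markers had a median of -0.52, from -0.56 in colon and -0.18 in ileum, with 7 of 9 below 0, 0 past 2-fold and a summed level of 2185 and 1247 in colon against 1946 and 1655 in ileum. Rgs13 and Trpm5, which mark this chemosensory cell, had differences of -0.80 and -0.70. The part of these cells in the values of the immune and nutrient lists was not tested.

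Many function lists had a median region difference near that of all genes. Of the 40 function lists, 5 had a median at least 0.25 log2 above that of all genes and 4 at least as far below, and the rest lay between. The 35 measured genes of the respiratory chain had a median of -0.04 with 0 past 2-fold, and the 29 measured ribosomal protein genes one of 0.08 with 0 past 2-fold. Goblet cell markers had a median of 0.07, and Muc2, the main mucin of the gut, stood at 13409 and 11951 in colon and 11493 and 9778 in ileum. Enteroendocrine markers had a median of -0.04 with 0 past 2-fold in 12 measured. Fatty acid oxidation and butyrate use had a median of -0.16, with 18 of 23 below 0 and 0 past 2-fold.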

How the data were processed

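The authors deposited linear intensities, 1 per probe set, that they made with dCHIP2004 as the design text says. Which of its background, model and normalization options they chose is not stated there. The 4 arrays were mapped to groups by their titles. Intensities were quantile-normalized over 45037 probe sets, raised to a floor at the pooled median (62.4) and taken to log2 with Python 3.11.15, numpy 2.4.6 and pandas 2.3.3. Figures were drawn with matplotlib 3.10.9. Genes were named from GEO's platform annotation, with the brightest probe set per gene. A floored array makes a difference a bound, and where bounds oppose each other it is called not resolved. With 1 array per group no test was made, and the 4 arrays limit the precision. A list was described where at least 4 members were measured and its median lay 0.25 log2 or more from that of all genes. A summed level took in every list member above the floor on at least 1 array, with the floor value where an array was below it. Named genes are, among those past 2-fold, with an array above the pooled 75th percentile (259) and all probe sets of 1 sign, 8 colon-made, 6 ileum-made and 6 opposing ones per direction (the last ordered by the smaller change), leaving out clone names, and the largest and contrary members of each list described. Up to 5 genes per direction and region measured in 1 region were also named. Members of other lists were picked after their values were seen. The members and lists were chosen with earlier results of these data known. The calculation was tested on simulated data. Alternatives changed the scaling, the floor, the probe sets and the genes counted.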

Additional observations from a re-analysis of the deposited data

Results flagged for a closer look

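Germ-free changes that ran in opposite directions in colon and ileum, each by at least 0.5 log2, were singled out among the genes named and the members of the function and cell type lists past 2-fold. The difference between the regions was not tested in any of them, since each group had 1 array. With the colon change upward and the ileum change downward, the region difference was at least 2.06 for Niban1, at least 3.92 for Myl6b, 3.42 for Saa1, 1.48 for Capn2, 1.77 for Cxcl12, at least 1.91 for Celf2, 1.51 for Cd14 and 1.06 for Cd44. With the colon change downward and the ileum change upward, it was -2.00 for Tcf24, -2.03 for Arhgap9, -2.31 for Aif1l, -2.51 for Rsad2, -1.66 for Sh3d21, -1.89 for Kctd16, -2.03 for Oas3, -1.82 or lower for Usp18, -2.10 for Il18, -1.57 for Ces1g, -1.37 for Gsta4, -3.52 for Aqp8, -1.46 or lower for Muc20, -1.75 or lower for Ccne1 and -3.10 or lower for Slc37a2. The colon change was the larger one for Aqp8, Slc37a2, Rsad2, Oas3 and Il18, and the ileum change was the larger one for Myl6b and Saa1. For Usp18 the larger change was not resolved, since each region had an array at the floor.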

How the results depend on the processing

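Counts followed the floor and the scaling. The count of genes at least 2-fold higher was 468 with the values as deposited. With the floor at the 25th percentile 714 genes were higher and 1195 lower, with the floor at the 75th percentile 55 and 155, and with no floor 1720 and 2291. Relative to the median of all genes, the plasma and B cell median was -0.18 with the floor at the 25th percentile, 0.034 with the floor at the 75th, -0.17 with no floor and -0.20 without shared probe sets. The T lymphocyte median turned to -0.12 and -0.13 with the floor at the 25th percentile and with no floor. With no floor the brush border peptidase median was 1.10 and the Paneth cell median 0.66. Of the genes, Adgrd1 turned to -0.073, Cdc20 to -0.089 and Igkv8-30 to 0.041 with the floor at the 75th percentile, and Cdc20 to -0.42 and St3gal6 to 0.72 without shared probe sets. Of 119 named genes and list members past 2-fold, 77 were still measured with the floor at the 75th percentile and 19 of these were under 2-fold. Among them were Slc15a1 (0.92), Hs3st2 (-0.78), Abcg8 (-0.79), Postn (0.46), Kctd13 (-0.59), Tmem106c (-0.80), Sh3d21 (-0.96), Capn2 (0.89), Oas3 (-0.83), Ccl25 (0.46), Cxcl1 (-0.21), Npc1l1 (0.77), Ccnd2 (0.60) and Cd8a (-0.39), while Cyp3a25 and Abcg5 were at -1.45 and -1.15. With the values as deposited 17 were under 2-fold, among them Plekhg2 (-0.95), Tmem106c (-0.77), Ankrd24 (-0.75), Clec2e (-0.79), Zbp1 (-0.87), Cxcl1 (-0.86), Igha (-0.91), Gstm1 (-0.93), Gstk1 (-0.99) and Fen1 (-0.98). Averaging probe sets put 16 under 2-fold and median scaling 7, with Naaladl1 at 0.94. The causes were not tested. Interferon-stimulated genes kept a median between -0.62 and -0.35 over 9 alternatives, conjugation and efflux genes between -0.37 and -0.25, transporters between 0.39 and 0.75 and cell cycle genes between 0.29 and 0.63. No paired analysis was possible because each group has 1 array, and no replicate could be left out. Intensities near the floor limit what a difference can show.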

Other observations

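Genes above the floor in 1 region have no region difference, but their change there can be given. Of 681 genes measured in colon only, the germ-free array was past 2-fold above the wild type array in 12 and below it in 27. Of the 11065 genes measured in both regions, 4.45% were past 2-fold in colon in either direction. H60c, a ligand of the lymphocyte receptor NKG2D, went from 120 to 783, Bmper, a regulator of bone morphogenetic proteins, from 196 to 680.0, and Mptx1, a mucosal pentraxin, from 78.9 to 260.4. On the lower side Slc16a9, a member of the monocarboxylate transporter family, went from 661 to 162, Cbr3, a carbonyl reductase, from 2473 to 762, and Scarb1, the receptor for high-density lipoprotein, from 313 to 97.7. Of 685 genes measured in ileum only, the germ-free array was past 2-fold above in 4 and below in 14. Of the genes measured in both regions, 0.822% were past 2-fold in ileum in either direction. Flvcr2, a choline transporter, went from 337 to 982 and Fam151a from 120 to 403. On the lower side Il3, the cytokine interleukin 3, went from 836 to the floor and had the largest decrease. Itln1, the goblet and Paneth cell lectin intelectin, went from 3848 to 1706, and Cavin2, a caveolar protein, from 284 to the floor.

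Other genes past 2-fold sat in lists whose median lay near that of all genes. Tfrc, the transferrin receptor, went from 2621 to 6904 in colon and from 6812 to 5446 in ileum, a region difference of 1.72 that was 0.63 as a mean over its probe sets. In retinoid metabolism Lrat, which stores retinol as esters, had a difference of 1.39 and Stra6, a retinol uptake receptor, one of at least 1.45. Other members lay below 0, among them Retsat at -0.66, Isx at -0.40 and Dhrs3 at -0.34. Cyp26b1, of the same list, went from 266 to the floor in colon and from 66.4 to the floor in ileum, so that its difference was not resolved. Hnf4g, a transcription factor of enterocytes, went from 268 to 560.5 in colon and from 2012 to 1596 in ileum, and its difference of 1.40 was 0.25 as a mean over its probe sets. Scd1, a desaturase of fatty acid synthesis, went from 1946 to 494 in colon and from 1672 to 1106 in ileum, a difference of -1.38. Hspb1, a small heat shock protein, went from 480.0 to 161 in colon and from 343 to 469 in ileum, a difference of -2.03. Egr1, an immediate early gene, went from 3367 to 1857 in colon and from 1158 to 1636 in ileum, a difference of -1.36, and 15 of the 18 measured immediate early genes lay below 0. S100g, the calcium-binding protein calbindin-D9k, was lower on both germ-free arrays, from 5434 to 759 in colon and from 419 to 122 in ileum, a difference of -1.07. Mt2, a metallothionein, was higher on both, from 1655 to 3149 in colon and from 956 to 3630 in ileum.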
